A study of Homo sapiens with 2 samples.

Results

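The GATA factor and FOG cofactor genes are a family of 6 genes for zinc finger transcription factors, GATA1 to GATA6, with the 2 genes for their zinc finger partners, ZFPM1 (FOG1) and ZFPM2 (FOG2). LDB1 peaks were assigned to these 8 genes, out of 19974 protein-coding genes (autosomes and X), by 1 rule: a peak counted when its midpoint fell inside the gene or no more than 10 kb outside it, and, for distal elements, no more than 100 kb outside it. The genes were chosen by name and not by their peaks, though with earlier results of these data known. The data came from CUT&Tag, in which an antibody directs a transposase to chromatin so that DNA beside the bound protein is cut and sequenced. The cells were untreated NB4, an established human acute promyelocytic leukaemia line with a PML::RARA fusion; 1 library was made with an antibody to LDB1 and 1 with a non-specific IgG. Only the LDB1 peak list was analysed here, so the spread between replicates and the IgG level at these genes were not measured. NB4 is a single line, and a peak list holds no RNA level, so neither the identity of the cells nor the expression of any gene below could be checked.

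GATA factors bind DNA through zinc fingers that read the sequence GATA, and their finger nearest the N terminus also holds FOG proteins, which bring repressor complexes such as NuRD and CtBP. In blood cells GATA1 or GATA2 sits on DNA beside TAL1 and an E protein, and LMO2 and LDB1 bridge them; LDB1 binds no DNA itself. GATA2 keeps stem and progenitor cells and mast cells, GATA1 with FOG1 drives red cells and platelets, and GATA3 drives T cells. GATA4, GATA5 and GATA6 work with FOG2 in heart, gut and gonad, and are not known as factors of granulocyte precursors.

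RefSeq promoter windows (GRCh38.p14) of GATA1, GATA2, GATA3, GATA6 and ZFPM1 were used, and 5 of the 11 windows of these genes (300 bases each) were overlapped by an LDB1 peak, against 20.2% of 34961 windows of all genes. Windows of 1 gene are not independent. The 250 bases before the start of transcription are shown for these 5 windows, because an LDB1 peak reached them among the 11 windows used. No window was used for GATA4, GATA5 or ZFPM2, so the stretches before their starts were not looked at. They are written 5′ to 3′ on the strand of the gene. Capitals mark E boxes (CANNTG, a general motif whose forms include those of TAL1 and E proteins).
GATA1 (chrX:48786340-48786589, plus strand): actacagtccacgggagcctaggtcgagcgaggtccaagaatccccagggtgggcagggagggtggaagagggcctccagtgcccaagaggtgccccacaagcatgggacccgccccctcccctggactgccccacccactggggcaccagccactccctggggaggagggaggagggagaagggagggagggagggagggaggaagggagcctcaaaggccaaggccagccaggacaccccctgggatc
GATA2, outer start (chr3:128493202-128493451, minus strand): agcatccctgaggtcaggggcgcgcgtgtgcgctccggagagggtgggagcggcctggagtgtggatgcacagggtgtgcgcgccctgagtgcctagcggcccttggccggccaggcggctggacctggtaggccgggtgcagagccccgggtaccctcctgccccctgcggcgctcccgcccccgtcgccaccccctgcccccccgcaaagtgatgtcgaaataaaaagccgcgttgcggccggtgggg
GATA2, inner start (chr3:128488531-128488780, minus strand): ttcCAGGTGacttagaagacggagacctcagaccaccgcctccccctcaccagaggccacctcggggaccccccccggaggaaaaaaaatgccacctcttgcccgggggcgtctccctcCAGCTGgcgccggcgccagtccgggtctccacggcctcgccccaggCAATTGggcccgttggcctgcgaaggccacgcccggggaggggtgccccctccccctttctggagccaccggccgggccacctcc
GATA3, inner start (chr10:8049604-8049853, plus strand): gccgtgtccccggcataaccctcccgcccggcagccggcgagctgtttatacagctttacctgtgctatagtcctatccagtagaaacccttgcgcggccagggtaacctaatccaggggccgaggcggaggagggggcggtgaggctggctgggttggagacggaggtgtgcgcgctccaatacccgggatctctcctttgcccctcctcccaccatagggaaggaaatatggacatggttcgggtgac
ZFPM1 (chr16:88453030-88453279, plus strand): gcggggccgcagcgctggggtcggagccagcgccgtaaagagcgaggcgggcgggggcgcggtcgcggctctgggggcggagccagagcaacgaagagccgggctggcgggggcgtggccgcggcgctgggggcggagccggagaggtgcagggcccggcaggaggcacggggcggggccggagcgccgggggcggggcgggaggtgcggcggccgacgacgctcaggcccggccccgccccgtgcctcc

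The peaks covered all 250 bases at GATA1, at the outer start of GATA2 and at the inner start of GATA3. At the inner start of GATA2 they covered 203 bases, those nearest the start, and at ZFPM1 154 bases, those farthest from the start, so that the peak ended before the start. Of the GATA motifs, the forms AGATAA as well as AGATAG were searched on both strands, together with the forms TGATAA as well as TGATAG. None occurred in the 11 stretches of 250 bases before the starts of these genes. Among all 34961 such stretches 22.3% held at least 1 of them, and among the 7050 whose window lay under a peak 11.7% did. E boxes occurred in the inner GATA2 stretch, in 2 of the GATA3 stretches without a peak and at GATA6, where no peak overlapped the window. At the inner GATA2 start CAGGTG began 247 bases before the start and lay outside the peak, whereas CAGCTG at 131 bases and also CAATTG at 85 bases lay under it. A CANNTG was present in 61.8% of all stretches and in 54.7% of those under a peak. All 5 printed stretches were rich in G and C, from 62.0% at GATA3 to 83.2% at ZFPM1, against a median of 58.4% over all genes. The stretches of these genes without a peak had an overlapping range, from 55.6% to 74.8%, both at GATA3. The windows end near the start, so these letters say nothing about motifs elsewhere in the peaks.

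Every gene of the family carried LDB1 peaks. All 8 had at least 1 peak by the 10 kb rule, where 70.1% of protein-coding genes did, and all 8 had one in the gene body itself, against 54.5%. At least 5 peaks were present at 6 of the 8, against 17.1% of protein-coding genes. The family had a median of 6 peaks per gene, against 1 over all protein-coding genes. Of the 77 peaks counted, 58 had their midpoint in a gene body and 19 in the 10 kb on either side. ZFPM1 alone had 32 of them (41.6%), and 45 were at the other 7 genes. GATA4 followed with 13, GATA2 with 8, GATA5 with 7, GATA1 and GATA6 with 5 each, ZFPM2 with 4 and GATA3 with 3. This order below ZFPM1 depended on narrow peaks: among the widest 50% of all peaks ZFPM1 had 24 and GATA1, GATA2, GATA4 and GATA5 had 5 each. Among the widest 25% ZFPM1 had 17, GATA1 and GATA2 4 each, GATA5 3, GATA3 and GATA4 2 each, ZFPM2 1 and GATA6 none. Per 100 kb of gene and flanks, the exact Poisson intervals of GATA1 to GATA6 all overlapped one another, so counting error alone leaves their order unsettled. The interval of ZFPM1 lay above those of GATA3 and ZFPM2, and the interval of ZFPM2 lay below all but that of GATA3.

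**Figure D1:**
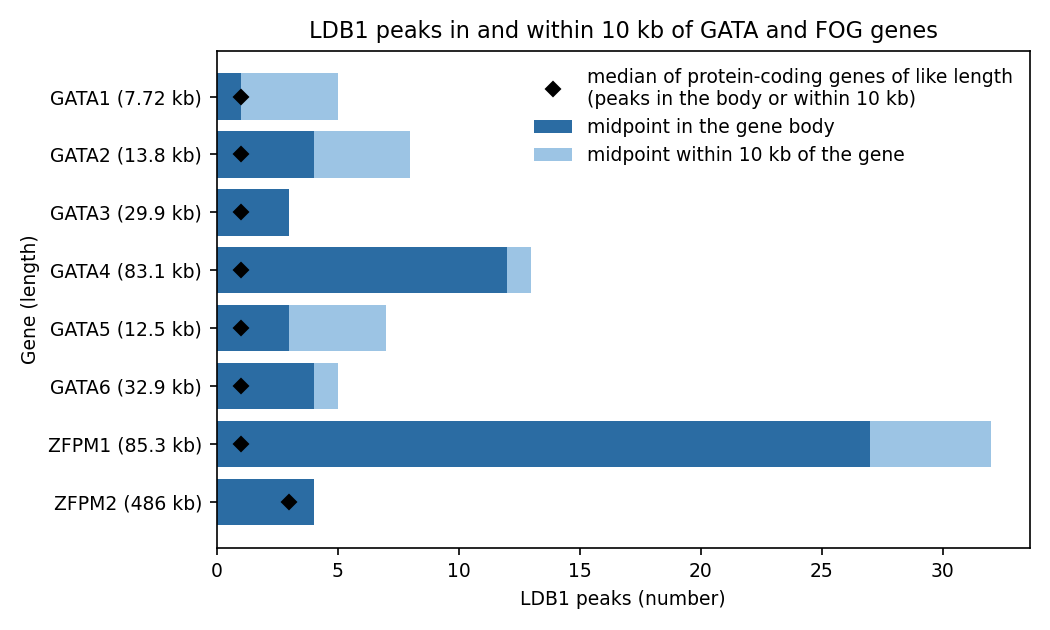
Number of LDB1 peaks (horizontal axis) at each of the 8 genes, split into peaks in the gene body (dark) and within 10 kb of it (light), with the median of protein-coding genes of like length (diamond). ZFPM1 reached 32 peaks where genes of like length had a median of 1, while ZFPM2, the longest, had 4 where the median was 3.

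Gene length differs widely in the family, so each gene was set beside protein-coding genes of like length (for GATA1, those from 6.18 to 9.65 kb). ZFPM1 (85.3 kb) stood furthest up, since 6 of 1700 genes of like length (0.353%) had as many peaks. GATA4 (83.1 kb) was matched by 79 of 1709 (4.62%), GATA2 (13.8 kb) by 108 of 2156 (5.01%) and GATA5 (12.5 kb) by 131 of 2088 (6.27%). The remaining genes lay closer to the middle of their length class. As many peaks were found at 12.0% of genes of like length for GATA1 (7.72 kb), 18.7% for GATA6 (32.9 kb), 32.0% for GATA3 (29.9 kb) and 44.1% for ZFPM2 (486 kb).

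**Figure D2:**
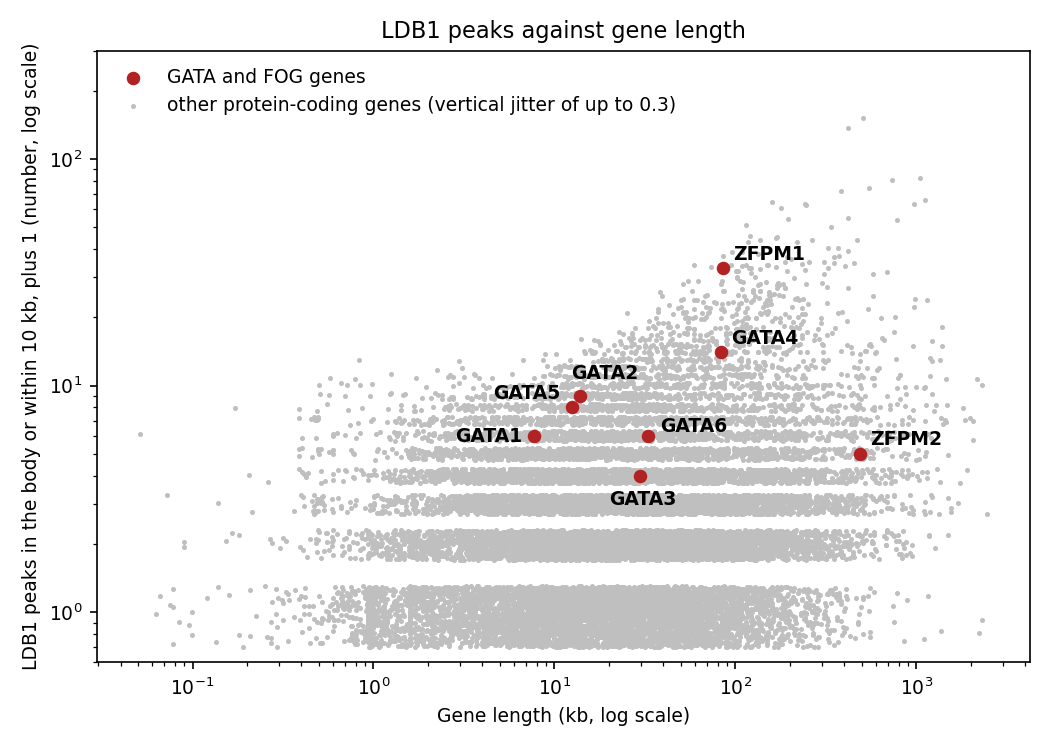
LDB1 peaks by the 10 kb rule, plus 1 (vertical log axis), against gene length in kb (horizontal log axis), for the 8 GATA and FOG genes (red) and all other protein-coding genes (grey). ZFPM1 lies at the upper edge of the cloud at 85.3 kb, and GATA3 and ZFPM2 lie within it.

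GATA1, the master factor of red cells and platelets, had 5 peaks spread over both flanks (chrX:48786590-48794311 is the gene). A peak of 758 bp lay 3.53 kb upstream of the start (chrX:48782682-48783439), in the region where the upstream blood enhancer of Gata1 is known from mice. A peak of 1637 bp covered the promoter (chrX:48785229-48786865). Another, of 829 bp, lay inside the gene 5.51 kb from the start. The widest, 2352 bp, lay across the 3′ end of the gene (chrX:48793746-48796097). The last, 1949 bp, covered the promoter of the neighbouring gene HDAC6, a deacetylase of tubulin, and is nearer to that gene than to GATA1. Without it GATA1 had 4 peaks.

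GATA2, the factor of stem and progenitor cells, had 8 peaks, 4 inside the gene (chr3:128479422-128493201) and 4 upstream, and none in the 10 kb downstream. Inside the gene the widest was 1643 bp and lay 9.66 kb from the outer start (chr3:128482716-128484358), in the part of the gene where an intronic blood enhancer of Gata2 is known from mice. Next to the inner start lay a peak of 1242 bp (chr3:128487492-128488733), and the outer start lay under one of 949 bp (chr3:128492950-128493898). Both known starts therefore had a peak. Upstream, a peak of 1822 bp lay 3.97 kb from the outer start (chr3:128496259-128498080) with narrower ones of 496 and 482 bp on either side of it. The 2 other peaks, of 581 and 459 bp, lay inside the gene.

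The stretch up to 100 kb from GATA2 held 33 peaks in all, 25 of them beyond 10 kb. Of those 25, 20 were nearer to another protein-coding gene. Downstream lay 16, among them the widest peak of the whole window, 4855 bp (chr3:128409591-128414445), 81.2 kb from the start and inside EEFSEC, which encodes the elongation factor for selenocysteine. With peaks of 2227 and 2101 bp beside it, it was 1 of 3 distal peaks of 2 kb or more, all inside EEFSEC. Another 6 were nearest to DNAJB8, a chaperone gene, with the widest at 1865 bp. Upstream, towards RPN1, lay 9 narrow peaks, none wider than 842 bp. The distal blood enhancer of GATA2 that is moved next to MECOM in some leukaemias is known to lie on this side. Between 100 and 150 kb on the same side were 2 more peaks, and the nearer, 492 bp wide, lay 111 kb from the start (chr3:128604112-128604603). Whether any of these peaks acts on GATA2 was not tested.

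**Figure D3:**
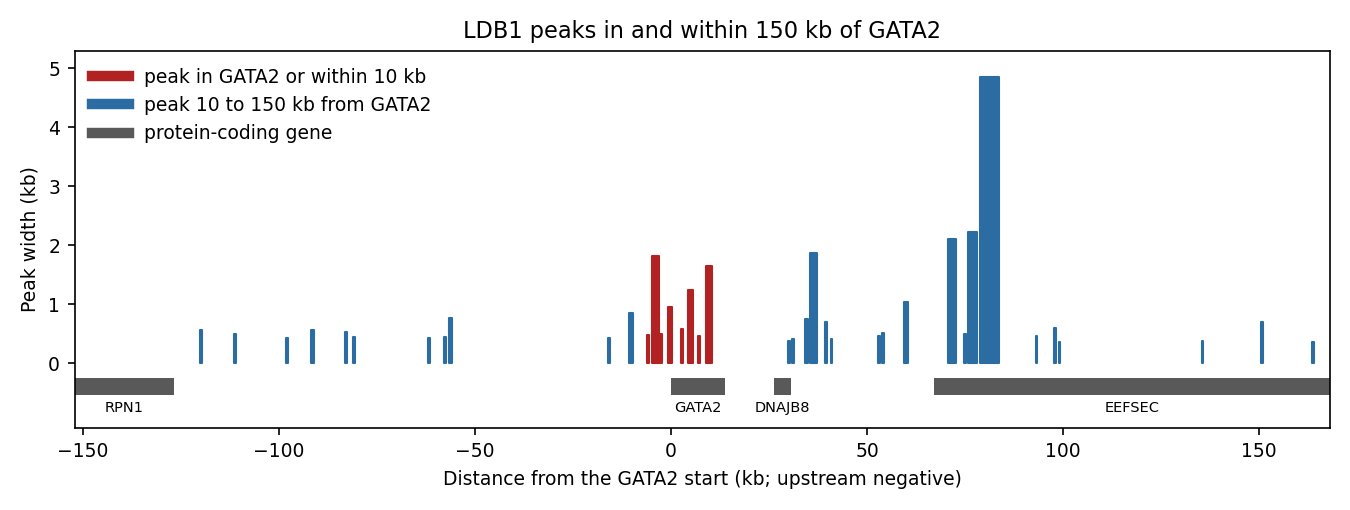
LDB1 peaks by distance in kb from the outer GATA2 start (horizontal axis, upstream negative) and width in kb (vertical axis); red peaks are in GATA2 or within 10 kb, blue ones 10 to 150 kb away, and grey bars are protein-coding genes. Upstream peaks beyond 10 kb are all 842 bp or narrower, and the widest peak of the region, 4855 bp, lies inside EEFSEC.

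GATA3, the T cell factor, had the fewest peaks. All 3 lay in the gene body (chr10:8045333-8075198), within 10.6 kb of the outermost start. Their widths were 705, 1271 and 819 bp, and the widest covered 1 of its 6 RefSeq promoter windows (chr10:8049451-8050721). A further peak of 1489 bp lay 10.8 kb from the gene on the upstream side, and no others were found within 100 kb. GATA3 nevertheless lay in the emptiest surroundings of the family. The 1 Mb on either side of its window held 9 peaks, 0.450 per 100 kb (95% interval 0.206 to 0.854), against 6.02 per 100 kb (1.24 to 17.6) in the gene and its 10 kb flanks. All such intervals are exact Poisson intervals and cover counting error only.

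GATA4, a factor of heart and endoderm, had 13 peaks, 12 of them in the gene body (chr8:11676935-11760002). They were narrow, from 326 to 1154 bp with a median of 520 bp. With the gene divided into 3 equal stretches, 6 peaks lay in the stretch at the lower coordinates and 3 in each of the others. The last peak lay 9.65 kb outside the gene, and its nearest protein-coding gene was NEIL2, a DNA repair gene. No peak midpoint lay within 1 kb of an end of GATA4.

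GATA5, known from endocardium and gut, had 7 peaks of 330 to 1899 bp, 3 of them in the gene (chr20:62463497-62475995). None lay within 1 kb of a gene end. Its surroundings held more, with 47 peaks within 100 kb, next to ZFPM1 with 52. Among protein-coding genes, 20 of the 40 beyond 10 kb were nearest to GATA5 and 20 to other genes, 10 of them to RBBP8NL. Some of those nearest to GATA5 lay in non-coding genes. On the side of higher coordinates no other protein-coding gene lay within 167 kb. The widest distal peak, 5771 bp (chr20:62533176-62538946), was in that stretch, with its midpoint in the non-coding gene LOC105376995. The 1 Mb on either side held 7.85 peaks per 100 kb (6.67 to 9.18), against 21.5 (8.66 to 44.4) in the gene and its flanks.

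GATA6, which also acts in endoderm and heart, had 5 peaks, all under 1 kb. It was the only gene of the 8 without a peak of 1 kb or more. Their widths were 679 bp upstream, 370, 392 and 662 bp within 7.37 kb after the start, and 594 bp near the 3′ end (chr18:22169589-22202528 is the gene). The peak next to the start lay 0.585 kb after it, and no peak overlapped the promoter window. Between 10 and 100 kb there were 4 more peaks, all upstream, and GATA6 was the nearest protein-coding gene to all of them. Of these, 3 lay in the non-coding gene LOC124904259, the widest of 847 bp.

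ZFPM1, the gene of the FOG1 cofactor that GATA1 needs in red cells and platelets, was covered by LDB1 peaks over much of its length. The gene body (chr16:88451769-88537031) held 27 peaks, which covered 47376 bp of it (55.6%). At the other 7 genes this share ran from 0.613% (ZFPM2) to 30.3% (GATA2). The 4 widest peaks were 12089, 7590, 4161 and 3338 bp, and together they made up 50.4% of the peak bases at the gene. The widest lay 41.7 kb from the start and the next 19.5 kb from it (chr16:88468998-88476587), both far inside the gene. The peak over the promoter window was narrow, 409 bp (chr16:88452775-88453183), and 1 of 3338 bp followed it inside the gene (chr16:88453598-88456935). With the gene divided into 3 equal stretches from 5′ to 3′, these held 9, 6 and 12 peaks. The middle stretch had the most peak bases, 22449 bp, while the first had 16660 bp and the last 8267 bp. The median gap between neighbouring peaks was 902 bp and the largest 5260 bp.

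The surroundings of ZFPM1 were also dense. The 1 Mb on either side held 266 peaks, 13.3 per 100 kb (11.7 to 15.0), against 30.4 (20.8 to 42.9) in ZFPM1 and its flanks, a ratio of 2.29. At 35.4% of the protein-coding genes that had a peak the ratio to the flanks was at least as high. The part of this dense region in the count of ZFPM1 was not tested. When peaks 10 kb or less apart were joined, ZFPM1 lay in 1 cluster of 37 peaks over 130 kb (chr16:88427472-88557633). Within 100 kb there were 52 peaks, of which 20 had a neighbour, ZNF469 or ZC3H18, as the nearest protein-coding gene. A count of peaks need not equal a count of binding sites: with peaks 1 kb or less apart joined, the 32 of ZFPM1 became 14 and the 77 of the family 51.

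ZFPM2, the FOG2 gene of heart, gonad and diaphragm, gave the opposite picture. It is 5.70 times as long as ZFPM1 (chr8:105318438-105804539) and had 4 peaks, which covered 0.613% of the gene body. The widest, 1913 bp, lay across its end at the lower coordinates (chr8:105318004-105319916). The others, of 675, 450 and 375 bp, lay deep inside the gene. Its density, 0.790 peaks per 100 kb (0.215 to 2.02), was close to that of the 1 Mb on either side, 0.650 (0.346 to 1.11).

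**Figure D4:**
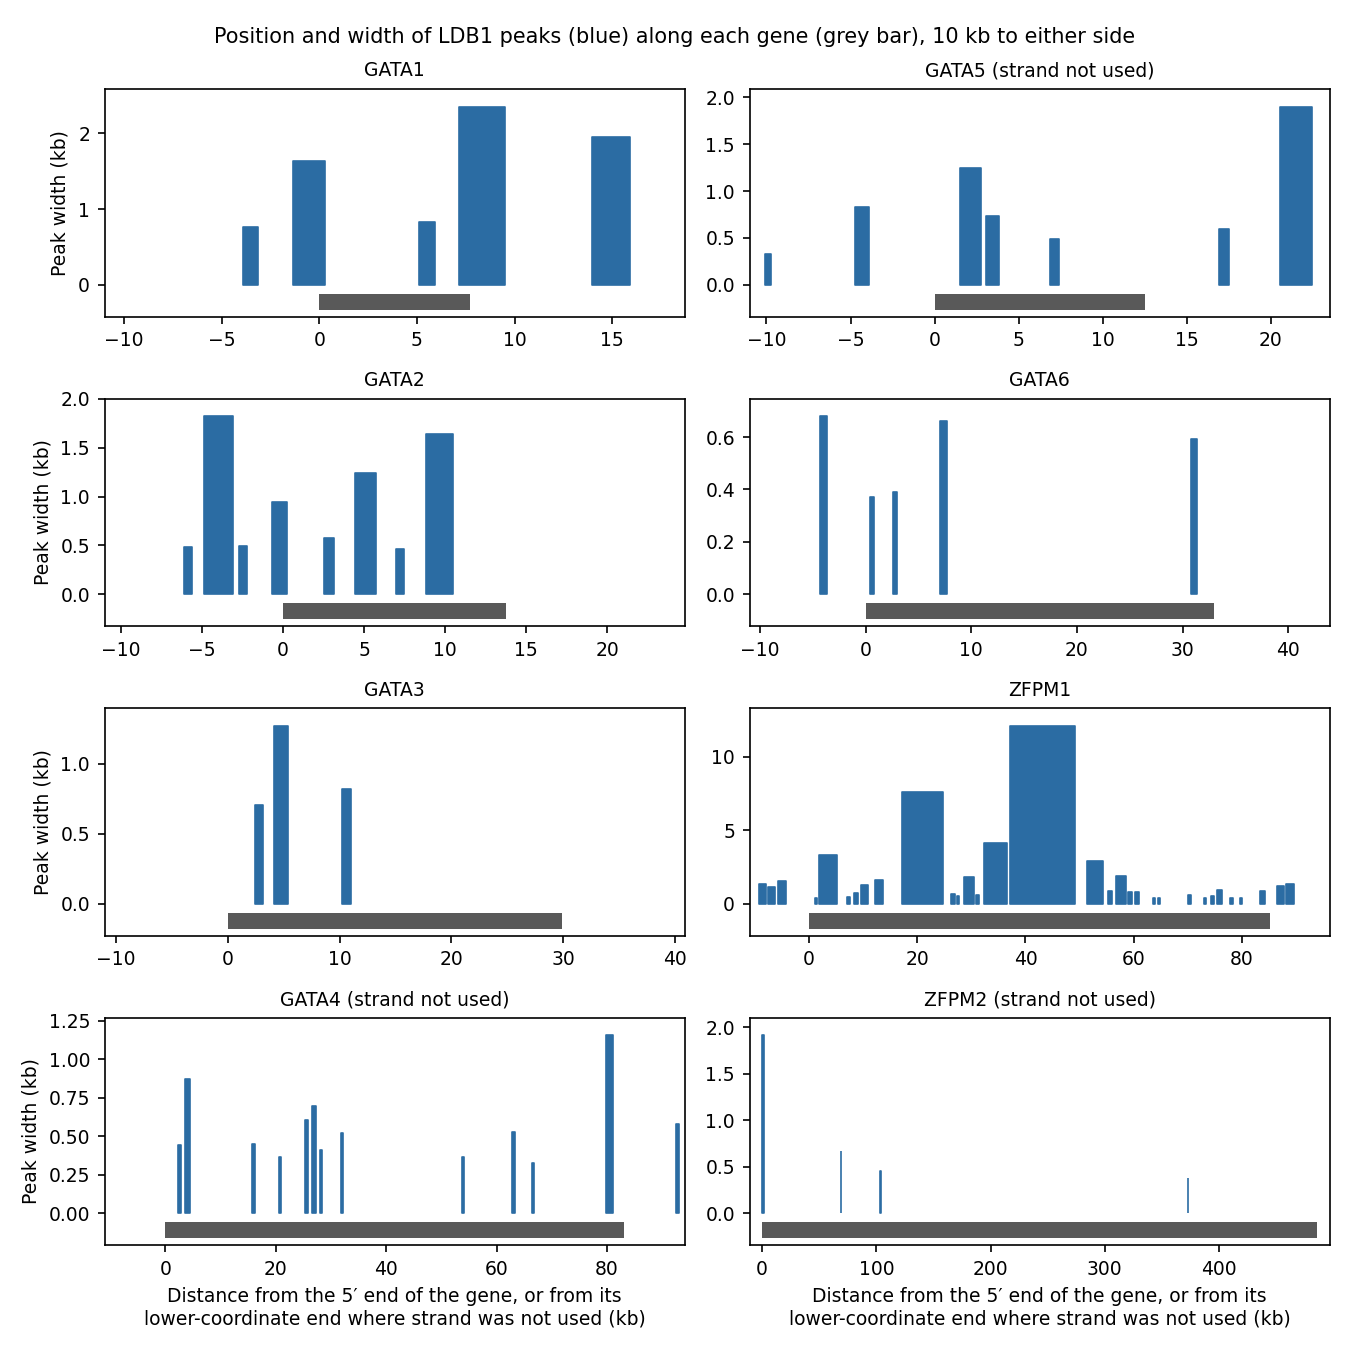
LDB1 peaks (blue) along each gene (grey bar) and the 10 kb on either side, by distance in kb (horizontal axis) and width in kb (vertical axis, a scale of its own in each panel). Peaks cover much of ZFPM1, with the widest at 12089 bp, lie in the 5′ part of GATA3, and are sparse along ZFPM2.

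Density against the surroundings thus differed from the ranking by number. The ratio of peaks per kb in the gene and its 10 kb flanks to the 1 Mb beyond was 13.4 at GATA3 and 10.5 at GATA6, and 5.47 at GATA1 and 4.60 at GATA2. The flanks of GATA3 held 0.450 peaks per 100 kb where chromosome 10 averaged 1.67, and those of GATA6 held 0.900 where chromosome 18 averaged 0.929. It was 2.74 at GATA5, 2.52 at GATA4, 2.29 at ZFPM1 and 1.22 at ZFPM2. The median over the 13991 protein-coding genes with a peak near them and in these flanks was 1.63. A ratio as high as that of GATA3 was found at 1.64% of them and as high as that of GATA6 at 2.67%, though both rest on few peaks, 3 and 5 in the gene and 9 and 18 in the flanks.

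The peaks of the family were wider than most. At least 1 kb was reached by 25 of the 77 (32.5%, exact binomial 95% interval 22.2 to 44.1%), against 16.4% (16.1 to 16.7%) of the other 52688 peaks, and the median width was 705 bp, against 549 bp. Of the 25, 14 were at ZFPM1. Leaving out ZFPM1, the share was 24.4% (12.9 to 39.5%), an interval that takes in the share of the other peaks. These intervals treat peaks as independent, which peaks of 1 gene are not. Peaks of 1 kb or more were found at 7 of the 8 genes, against 25.9% of protein-coding genes, and peaks of 3 kb or more at ZFPM1 alone, against 1.89%. With the widest 25% of peaks only, 7 of the 8 genes had a peak within 10 kb, where 34.9% of protein-coding genes did.

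Within the GATA genes, those known from blood had the wider peaks when pooled, but not gene by gene. Among GATA1, GATA2 and GATA3, 7 of 16 peaks reached 1 kb (43.8%, 19.8 to 70.1%), against 3 of 25 (12.0%, 2.55 to 31.2%) among GATA4, GATA5 and GATA6. The 7 include the 1949 bp peak over the HDAC6 promoter. The median width was 889 bp in the first trio and 579 bp in the other. GATA5 alone had a median of 730 bp, near the 765 bp of GATA2 and the 819 bp of GATA3. Its widest peak, 1899 bp, was wider than any at GATA2 (1822 bp) or GATA3 (1271 bp). The intervals overlap, peaks of 1 gene are not independent, and the difference was not tested. By number per length the trios were close, with 14.4 peaks per 100 kb (8.21 to 23.3) among GATA1, GATA2 and GATA3 and 13.3 (8.58 to 19.6) among GATA4, GATA5 and GATA6.

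**Figure D5:**
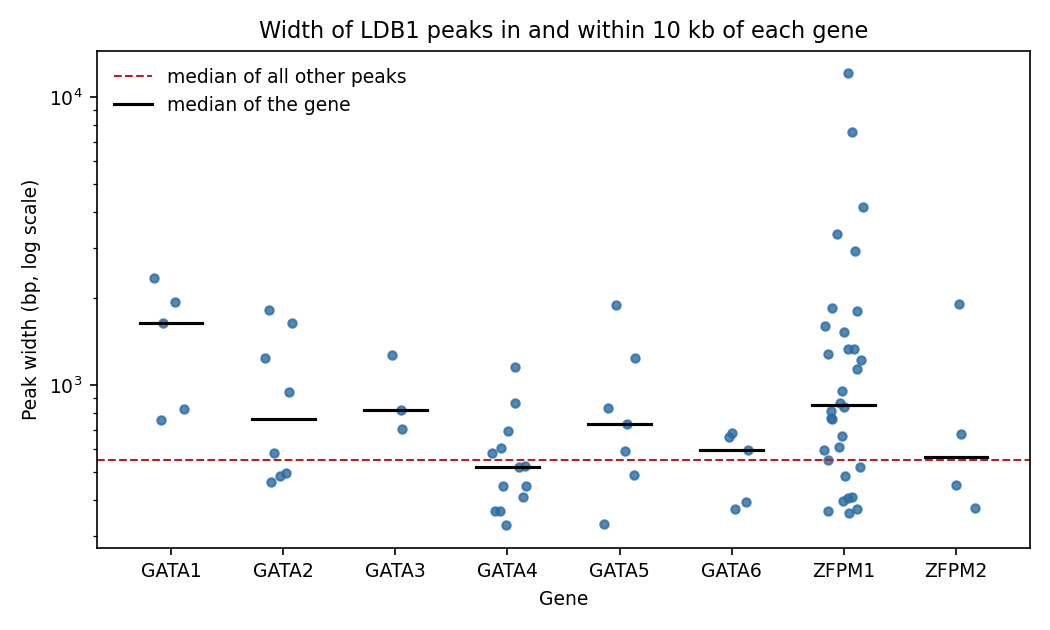
Width of each LDB1 peak in bp (vertical log axis) in the body or within 10 kb of each gene, with the median of the gene (black line) and of all other peaks (dashed, 549 bp). The medians of GATA1, GATA2, GATA3, GATA5 and ZFPM1 lie between 730 and 1637 bp, while that of GATA4, 520 bp, lies under the dashed line.

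At gene ends the count was close to the background. At 4 of the 8 (GATA1, GATA2, GATA6 and ZFPM2) an end of the gene had a peak midpoint no more than 1 kb away, against 37.6% of protein-coding genes. The number moved with the limit, to 1 at 500 bp and 6 at 2500 bp. Ends were the outermost coordinates of the gene, and starts inside a gene were not counted. The 409 bp peak at ZFPM1 lay 0.301 kb from its RefSeq start but 1.21 kb from the outer end. Within 100 kb all 8 genes had a peak, but so had 92.5% of protein-coding genes, so presence of a peak says little at this distance. By number, the 8 genes had a median of 22 peaks within 100 kb, against 6 over all protein-coding genes. The window held 194 peaks in all, of which 117 lay beyond 10 kb, and 83 of those were nearer to another protein-coding gene. GATA1 is an example, since all of its distal peaks were nearer to other genes, among them HDAC6 and SUV39H1, a histone methyltransferase gene.

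Genes most like each member were found by their number of peaks, the bases these cover and the gene length, as a distance on log2 scales over this 1 library. ZFPM1 was most like COL18A1, a collagen gene with 38 peaks (distance 0.424), NFIX with 31 (0.512) and ELFN1 with 32 (0.527). GATA2 was most like ARRDC2, PTBP1 and EXTL1 (distances 0.116 to 0.153), each with 8 peaks. GATA1 came closest to FUT1, HOXD13 and GCDH, GATA4 to CRISPLD2, SLC6A6 and AACS, GATA5 to B4GALNT4, SCRT2 and FAHD1, and GATA6 to COL2A1, SLC60A1 and LOC105376722. Among these 6 genes ZFPM1 was the farthest from its closest match.

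Genes of partners, of targets and of other proteins with a GATA-type zinc finger showed peaks unevenly. Of 49 such genes in 6 lists, 41 had a peak within 10 kb (83.7%), against 70.1% of all protein-coding genes. Corepressors that FOG proteins recruit all had one, 14 of 14, but with a median of 1 peak, the same as all genes. The most were at CTBP1 and CTBP2, which encode the CtBP corepressors and had 12 and 11 peaks, and at the NuRD subunit genes MTA3 and MBD3, with 9 and 8. CHD4, the NuRD remodeller, and HDAC1 and HDAC2 had 1 peak each, none of them in the gene body. Genes of the LDB1 complex, in a list that also held RUNX1 and KLF1, had a median of 8 peaks, with 11 of 12 carrying one. SSBP3 (188 kb) had 20, TCF3 17, CBFA2T3 (102 kb) 16, and TAL1 and LYL1 10 each, and TCF12 had none. Only 1 of the peaks at LYL1 lay in the gene body. The median gene length of this list was 38.4 kb, against 24.2 kb over all protein-coding genes.

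Among known GATA targets of mature lineages the share with a peak was near or below the 70.1% of all protein-coding genes, in lists of 6 or 7 genes. By number the lists differed. The median was 3 peaks for red cell genes, 4.5 for platelet genes and 0.5 for mast cell and eosinophil genes, against 1 over all protein-coding genes. Peaks of 1 kb or wider were found at 5 of 7, 3 of 6 and 0 of 6 of them, against 25.9%. Median gene lengths were 21.9, 8.23 and 22.2 kb, against 24.2 kb. Among red cell genes 5 of 7 (71.4%) had a peak within 10 kb, led by SLC4A1 with 12 and GFI1B with 7, followed by TFRC, the transferrin receptor gene, with 4 and ALAS2, for haem synthesis, with 3. HBB, the beta globin gene, had none. Among platelet genes 4 of 6 (66.7%) had one, with 9 at ITGA2B, 7 at NFE2 and 6 at GP9, and none at GP1BA or PF4. Among genes of mast cells and eosinophils 3 of 6 had one. EPX, the eosinophil peroxidase gene, had 4 peaks, KIT 2 and PRG2 1, while CPA3, MS4A2 and IL5RA had none. All 4 other genes with a GATA-type zinc finger had a peak, with 4 at RERE (465 kb), 3 at ZGLP1, 2 at TRPS1 (260 kb) and 1 at GATAD1.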

How the data were processed

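LDB1 binding was mapped by CUT&Tag in 1 library of NB4 cells. The submitters' processing notes name Bowtie2 2.4.1, MACS2 2.0.10 and hg38; the peak threshold and whether a control was used were not given in the sources used here. Per the file headers, the deposited table gives the position and length of 53742 peaks, without height, score, p-value or read total, so depth is unknown. The 52765 peaks on chromosomes 1 to 22 and X were used. No IgG table was analysed here.

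Peaks were assigned to RefSeq genes (GRCh38.p14) by midpoint with pandas 2.3.3, and the counting was tested on simulated peaks. Strand came from the RefSeq promoter windows, used for 5 of the 8 genes; overlapping windows on opposite strands were reverse complements in 2696 of 2696 pairs. With 1 library, no test could be run. Exact 95% binomial and Poisson intervals cover counting error only. A protein comparison was not run. The genes and lists were chosen with earlier results of these data known. Named were the 8 genes, their protein-coding neighbours, the 4 listed genes with the most peaks and those with none per list, and the 3 genes most like each member with at least 5 peaks; other genes were named after their values were seen, and some listed genes are not reported here by name.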

Additional observations from a re-analysis of the deposited data

How the results depend on the processing

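All 8 genes kept a peak within 10 kb in every alternative tried except the widest 25% of peaks, where 7 did, and all 8 kept one within 100 kb in each of its alternatives. The number of peaks within 10 kb (77) was 33 with the widest 25% of peaks, 136 in a 50 kb window, 51 with peaks 1 kb or less apart joined and 15 with those 10 kb or less apart joined. Without ZFPM1, chosen after seeing the data, it was 45. The number within 100 kb (194) was 107 with the widest 50% of peaks, 64 with the widest 25%, 38 with peaks 10 kb or less apart joined, and 107 with peaks nearest to the gene only. Without GATA5 and ZFPM1, again chosen after seeing the data, it was 95. Genes with a peak at an end (4) were 2 when the whole peak had to lie inside the window, 1 at 500 bp and 1 with peaks 10 kb or less apart joined. Protein-coding genes with a peak within 10 kb (13996) were 6967 with the widest 25% of peaks. The other 48 of 62 such values stayed within 1.5 times. Of 96 values for single genes 25 moved by more; with the widest 50% of peaks GATA4 had 5 in place of 13, and with the widest 25% it had 2 and GATA6 had 0. No paired analysis was possible because there was 1 library per antibody. Depth, and so the power to list weak peaks, is unknown.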

Other observations

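Several LDB1 peaks of these regions lay in non-coding genes, which were looked at after the values above were seen. GATA2-AS1, which lies across the upstream side of GATA2, held the midpoints of 5 peaks, the widest of 1822 bp. ZFPM1-AS1 held 7, the widest of 951 bp. Within 100 kb of GATA5 lay 5 peaks in MIR1-1HG, the host gene of a muscle microRNA, the widest of 1234 bp, and 4 in LOC105372711, the widest of 1899 bp. ZFPM2-AS1 held the single peak found between 10 and 100 kb of ZFPM2, of 355 bp. Peaks counted for these genes and for their protein-coding neighbours are in part the same peaks.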
